A study of Mus musculus with 12 samples.

Results

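Imprinted genes are genes of which one parental copy is silenced, and 37 of them were followed in whole mouse embryos that carry a hypomorphic allele of the ribosomal protein gene Rpl10a. The members were taken as the rows of the deposited table whose transcript maps to 1 of 37 listed gene symbols in the GENCODE annotation of GRCm38. Each symbol had 1 row among the 22467 transcripts, and the symbol was the criterion by which a row became a member. Wild-type embryos (genotype Rpl10a +/+) were compared with Rpl10a LOF/LOF embryos, all collected as whole embryos at E8.5 from mice kept on a C57BL/6 background, with 3 embryos of each genotype. The LOF allele is a CRISPR deletion within an intron that adds a stretch of amino acids after the first methionine of RPL10A, and the extended protein still enters ribosomes. Every embryo was lysed on its own and gave both a library of ribosome-protected fragments (RPFs, the pieces of mRNA that ribosomes shield from nuclease) and a library of total RNA. The replicate number names an embryo and ties its RPF library to its RNA library.

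Imprinted genes are marked with DNA methylation in the egg or the sperm, and after fertilization only the copy from the mother or only the copy from the father is transcribed. Many of them act on growth before birth. Paternally expressed genes such as Igf2, which encodes a growth factor, tend to promote growth, and maternally expressed genes such as Igf2r, whose product takes up IGF2 for breakdown, tend to restrict it. Several are imprinted only in the placenta or only in neurons. The counts do not separate the parental copies, so every value below is the sum of both.

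RPF libraries held 7041357 to 10863499 counts and RNA libraries 9132521 to 26561843. Levels are given as CPM in replicates 1, 2 and 3 of each genotype. CPM is a count divided by its library's total over the 12576 transcripts tested, with that total scaled by edgeR's TMM factor. Only the filter on low counts used full library totals without that factor. A difference was called when the false discovery rate (FDR) of edgeR's quasi-likelihood test was below 0.1 over the 12576 transcripts tested. Rpl10a itself lay at 1562 to 1679 CPM in the wild-type and 940 to 1125 CPM in the LOF/LOF RPF libraries (log2 fold change -0.64, SE 0.07, FDR = 0.00689 by edgeR). Its RNA was also called lower (-0.23, SE 0.06, FDR = 0.0678 by edgeR), and its change in RPF beyond that in RNA was not called (-0.42, SE 0.09, FDR = 0.974 by edgeR). In RPF, 4 Y-linked genes summed to 163 to 181 CPM in every wild-type embryo and to 153 CPM in LOF/LOF replicate 2, but to 9.33 and 0.38 CPM in LOF/LOF replicates 1 and 3. Sex is therefore unevenly spread over the genotypes. In whole embryos, fewer cells of a type and less RNA per cell cannot be told apart. The labels do not place the embryos in batches.

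Of the 37 members, 33 passed the filter on low counts (over 0.75 CPM in 3 or more of the RPF libraries). Among these 33, by edgeR's test, Slc38a4 and Cd81 rose in RPF, Nnat fell in RNA, and no member was called in RPF per RNA. Igf2, H19, Meg3 and Kcnq1 did not pass. The counts depend on which transcript of a gene stands in the table, as in Igf2, Gnas and Peg10, and also in Nnat and Commd1, whose counted coding sequences cover 48.1% and 60.3% of the coding bases of the gene. Coding sequence starts are shown for the rows of Igf2 and Gnas because they tell which protein the RPF count could follow. The sequences come from GENCODE transcripts of GRCm38, are written 5′ to 3′ on the coding strand, and have the start codon in capitals.
Igf2 row and IGF2 precursor, chr7:142655781-142655810, minus strand: ATGgggatcccagtggggaagtcgatgttg
Gm49394 row, chr7:142669857-142669886, minus strand: ATGcacgctctaaaactccctctcaccgtc
Gnas row, chr2:174284674-174284703, plus strand: ATGgatcgcaggtcccgggctcagcagtgg
Gs-alpha, chr2:174330296-174330325, plus strand: ATGggctgcctcggcaacagtaagaccgag

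The row of Igf2 is a transcript of 650 bases on the minus strand of chromosome 7, with the 540-base coding sequence of the IGF2 precursor. It held no RPF count in any library and from 0 to 6 RNA counts. Every stretch of 28 bases in that coding sequence (100%), and 93.6% of those in the transcript, also occurs in Gm49394, a longer transcript on the same strand that contains Igf2. In Gm49394 the IGF2 coding sequence begins at base 1149, behind the coding sequence annotated for that transcript, which runs from base 57 to base 1094. RPFs of IGF2 therefore fell outside the region counted for Gm49394, and how reads that fit 2 transcripts were handled is not given in the sources used here. The Gm49394 row, in contrast, was rich in RNA. It had 777, 811 and 783 CPM in wild-type and 759, 955 and 997 CPM in LOF/LOF RNA libraries. LOF/LOF replicate 1 lay below all wild-type embryos and the other two above them, and the difference was not called (log2 fold change 0.19, SE 0.09, FDR = 0.303 by edgeR). Its RPF count was 29 to 97 per library, against 6885 to 21136 RNA counts. No statement on the ribosome occupancy of Igf2 can be made from the table.

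Gnas has several first exons. In most tissues its main product is Gs-alpha, the G protein subunit that activates adenylyl cyclase. The table's transcript starts at a different, maternally expressed exon that encodes NESP55, and the 759-base coding sequence counted for RPFs (bases 260 to 1018) covers 16.5% of the coding bases of the gene. The end of the Gs-alpha coding sequence lies behind it, from base 1125 on. The RPF counts of the row, 58 to 108 per library, thus do not include ribosomes on Gs-alpha, while its 6394 to 19152 RNA counts include the exons that both transcripts share. Wild-type RPF levels were 9.51, 10.8 and 11.3 CPM and LOF/LOF levels 8.45, 7.33 and 9.13 CPM. The LOF/LOF values were all lower, but the difference was not called (log2 fold change -0.33, SE 0.15, FDR = 0.348 by edgeR), and RNA lay at 737 ± 16.3 CPM in wild-type and 752 ± 19.4 CPM in LOF/LOF embryos (SD, n = 3).

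Peg10, a gene derived from a retrotransposon and needed for the placenta, carries 2 reading frames, and ribosomes reach the second by a -1 frameshift. The window shown holds the slippery heptamer GGGAAAC, in capitals, where the frame can shift. It is the 1 match on the sense strand of the table's Peg10 transcript, and 19.4% of all transcripts in the table hold the heptamer somewhere.
Peg10, chr6:4755315-4755344, plus strand: gaattcgccgccGGGAAACtccccggcccc
The heptamer lies 15 bases ahead of the end of the counted coding sequence (bases 371 to 1498), which covers 37.4% of the coding bases of the gene. RPF counts of Peg10 therefore report the first frame only.

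Among the growth-promoting genes (Igf2, Peg3, Mest, Dlk1, Plagl1, Peg10, Rtl1, Zdbf2 and Slc38a4), 8 of 9 were tested. In RPF, 1 of the 8 was higher and 0 lower at FDR < 0.1, against 2.19% of all tested transcripts called in either direction, 1.05% called higher and 1.15% called lower. Slc38a4, an amino acid transporter that is strong in yolk sac, placenta and fetal liver (chr15:96994823-97055956, minus strand, 16 exons), was the one that rose. Its RPF level was 306, 291 and 310 CPM in wild-type and 376, 368 and 474 CPM in LOF/LOF embryos. All LOF/LOF embryos lay above all wild-type embryos, with replicate 3 highest. The means were 302 ± 9.93 and 406 ± 58.6 CPM (SD, n = 3), a 1.35-fold difference (log2 fold change 0.43, SE 0.09, FDR = 0.0658 by edgeR). Slc38a4 RNA was 204, 188 and 205 CPM in wild-type and 200.4, 243 and 263 CPM in LOF/LOF embryos, so the groups overlapped in replicate 1, and RNA was not called by edgeR (0.24, SE 0.09, FDR = 0.195), but was by DESeq2 (0.24, FDR = 0.0733), by edgeR over transcripts of any count (FDR = 0.0887) and by edgeR without LOF/LOF replicate 1 (0.34, FDR = 0.0389). Leaving out any wild-type embryo or LOF/LOF replicate 3 raised the RPF FDR above 0.1 (0.293, 0.312, 0.158 and 0.144 without wild-type 1, 2, 3 and LOF/LOF 3), with the log2 fold change between 0.30 and 0.49 over the 6 fits. With the Y-linked reads as a covariate it was 0.23 (SE 0.10, FDR = 0.605 by edgeR).

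The remaining growth-promoting genes did not pass edgeR's test. Limma-voom with sva, which called 10.4% of all transcripts, called Peg3 higher in RPF (0.18, FDR = 0.00973), and DESeq2 called Plagl1 higher in RNA (0.28, FDR = 0.0942). Mest, which encodes a protein of the alpha/beta hydrolase family, had the highest RPF level per length among all members, 1299.5 CPM per kb of counted coding sequence in wild-type embryos. Its RPF level was 1221, 1204 and 1260 CPM in wild-type and 1158, 1231 and 1317 CPM in LOF/LOF embryos. The groups overlapped fully, and the log2 fold change was 0.01 (SE 0.06, FDR = 0.970 by edgeR) in RPF and 0.06 (SE 0.05) in RNA. Peg3, a zinc finger protein, had 1002, 925 and 947 CPM in wild-type and 913, 1120.5 and 1212 CPM in LOF/LOF RPF libraries. Replicate 1 lay below and replicates 2 and 3 above the wild-type embryos (0.18, SE 0.09, FDR = 0.445 by edgeR). Without replicate 1 Peg3 was called higher in RPF (0.28, SE 0.06, FDR = 0.0798 by edgeR) and without replicate 3 it was 0.09 (FDR = 0.801 by edgeR). In RNA, too, replicate 1 lay below and replicates 2 and 3 above the wild-type embryos, with 1258, 1542 and 1510 CPM against 1261 to 1356 CPM (0.12, SE 0.08, FDR = 0.462 by edgeR).

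Dlk1, a membrane protein of the Notch ligand family, was a case in which 1 embryo stood apart. Its RPF level was 237, 209.5 and 202.6 CPM in wild-type embryos and 116, 235 and 215 CPM in LOF/LOF embryos. Its RNA level was 117, 113 and 111 CPM in wild-type embryos and 68.6, 128 and 134 CPM in LOF/LOF embryos. LOF/LOF replicate 1 thus lay far below every other embryo in both libraries, while replicates 2 and 3 lay within or above the wild-type range. The fitted differences were -0.20 (SE 0.19, FDR = 0.718 by edgeR) in RPF and -0.06 (SE 0.19, FDR = 0.919 by edgeR) in RNA. Without LOF/LOF replicate 1 the RNA difference turned positive and was called (0.20, SE 0.05, FDR = 0.0954 by edgeR). The RPF difference was 0.05 without that replicate and -0.38 without replicate 2 (FDR = 0.830 and 0.247 by edgeR).

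Peg10 RPF was 226, 226 and 239 CPM in wild-type and 138, 300.0 and 244 CPM in LOF/LOF embryos. Again replicate 1 was lowest and the other two were highest of the 6, which left a log2 fold change of -0.01 (SE 0.20, FDR = 0.984 by edgeR). The RPF difference was 0.24 without LOF/LOF replicate 1 and -0.26 without replicate 2 (FDR = 0.246 and 0.386 by edgeR). Peg10 RNA was 1032, 1162 and 1054 CPM in wild-type and 987, 1299.9 and 1456 CPM in LOF/LOF embryos (0.20, SE 0.12, FDR = 0.424 by edgeR). Without LOF/LOF replicate 1, RNA was called higher (0.35, SE 0.07, FDR = 0.0611 by edgeR), and without replicate 3 it was 0.08 (SE 0.10, FDR = 0.779 by edgeR).

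Plagl1, a zinc finger transcription factor that regulates other imprinted genes, had RPF levels of 57.2, 53.7 and 59.2 CPM in wild-type and 47.4, 59.2 and 76.6 CPM in LOF/LOF embryos (0.12, SE 0.14, FDR = 0.786 by edgeR). Its RNA level was 69.1, 70.6 and 68.2 CPM in wild-type and 68.9, 88.5 and 96.3 CPM in LOF/LOF embryos (0.28, SE 0.10, FDR = 0.198 by edgeR). In RNA, LOF/LOF replicates 2 and 3 lay above all wild-type embryos and replicate 1 among them. Without replicate 1 the RNA difference was 0.41 (SE 0.06, FDR = 0.0208 by edgeR), and without replicate 3 it was 0.18 (SE 0.09, FDR = 0.392 by edgeR). Zdbf2, a zinc finger protein known for an effect on growth after birth, had 68.3, 77.2 and 75.7 CPM in wild-type and 78.6, 72.8 and 85.3 CPM in LOF/LOF RPF libraries, with overlap (0.10, SE 0.09, FDR = 0.657 by edgeR). Its RNA ran from 129 to 159.5 CPM in wild-type and from 145 to 154 CPM in LOF/LOF embryos (0.05, SE 0.07, FDR = 0.787 by edgeR).

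Rtl1, like Peg10 derived from a retrotransposon, was the weakest growth-promoting gene tested. Its RPF level was 5.03, 4.45 and 2.92 CPM in wild-type and 3.35, 3.49 and 7.61 CPM in LOF/LOF embryos, and RNA was 1.24, 2.00 and 2.55 CPM against 1.90, 3.02 and 3.75 CPM. The log2 fold changes of 0.26 (SE 0.33) in RPF and 0.44 (SE 0.29) in RNA did not pass the test (FDR = 0.787 and 0.493 by edgeR). The RPF value was -0.27 without LOF/LOF replicate 3 and -0.46 with the Y-linked covariate. Over the 8 growth-promoting genes tested, the median log2 fold change was 0.11 in RPF and 0.16 in RNA, beside 0.004 and -0.002 over all transcripts. The RPF median turned to -0.06 without LOF/LOF replicate 3 and to -0.03 with the Y-linked covariate, and was 0.25 without replicate 1, while the RNA median was 0.08, 0.16 and 0.28 in these fits. Without replicate 3 the RPF differences of Plagl1 and Mest were -0.09 and -0.04, and with the Y-linked covariate those of Plagl1, Mest and Zdbf2 were -0.06, -0.03 and -0.03. The 9 rows summed to 2989.8 to 3123 CPM in the wild-type and 2831 to 3632 CPM in the LOF/LOF RPF libraries.

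**Figure D1:**
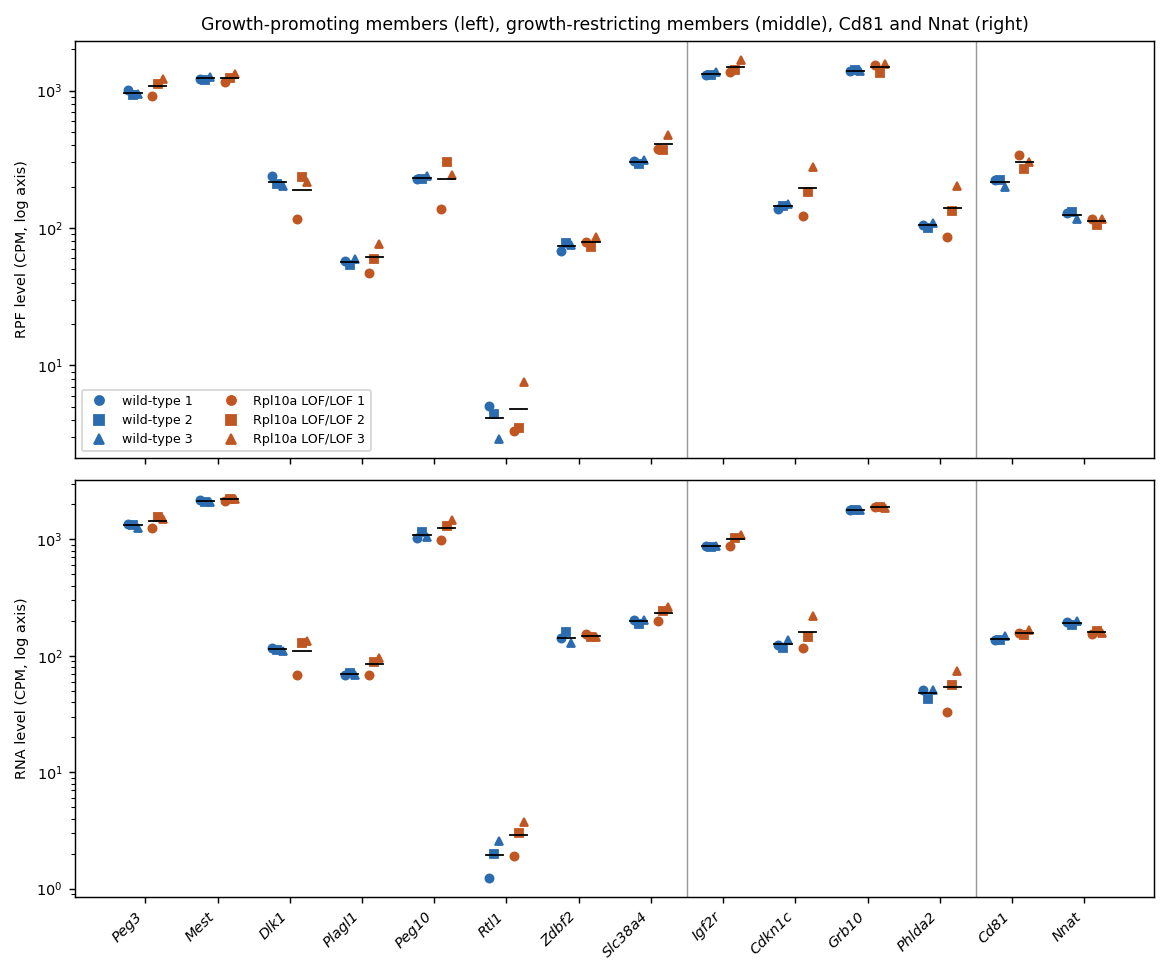
RPF level (top) and RNA level (bottom) in CPM on log axes for the growth-promoting and growth-restricting members tested and for Cd81 and Nnat, with 1 point per embryo (marker shape gives the replicate number) and the mean of each genotype as a bar. Slc38a4 and Cd81 RPF points of LOF/LOF embryos (368 to 474 and 269.7 to 338 CPM) sit above those of wild-type embryos (291 to 310 and 198 to 223 CPM), and in RPF LOF/LOF replicate 1 is lowest in Dlk1, Peg10, Cdkn1c, Phlda2 and Plagl1.

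Among the growth-restricting genes (Igf2r, H19, Cdkn1c, Grb10 and Phlda2), the 4 coding genes were tested and edgeR called none in RPF or RNA. Of all transcripts it called 2.19% in RPF and 5.02% in RNA. Limma-voom with sva called Igf2r, Cdkn1c and Phlda2 higher in RPF (FDR = 0.0118, 0.00104 and 0.00162) in a fit that called 10.4% of all transcripts, and DESeq2 called Igf2r higher in RNA (FDR = 0.0834), where it called 4.92% of all transcripts. At an unadjusted p under 0.05 edgeR had 0 of 4 in RPF (13.7% of all transcripts) and 1, Igf2r, in RNA (17% of all transcripts). All 4 log2 fold changes in RPF were positive, with a median of 0.30, and the median in RNA was 0.17. Without LOF/LOF replicate 3 these medians were 0.06 in RPF and 0.07 in RNA, and with the Y-linked covariate 0.10 and 0.07, with Grb10 RPF at -0.05. Igf2r (chr17:12682406-12769664, minus strand, 48 exons) had 1307, 1299.7 and 1361 CPM in wild-type and 1364, 1418 and 1678 CPM in LOF/LOF RPF libraries. The groups did not overlap, though LOF/LOF replicate 1 and wild-type replicate 3 nearly met, and the difference was not called (0.17, SE 0.08, FDR = 0.381 by edgeR). Its RNA was 882, 866 and 874 CPM in wild-type and 881, 1019 and 1097 CPM in LOF/LOF embryos (0.19, SE 0.07, FDR = 0.207 by edgeR). Without replicate 1 Igf2r RNA was called higher (0.27, SE 0.06, FDR = 0.0557 by edgeR), and without replicate 3 it was 0.12 (FDR = 0.409 by edgeR).

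Cdkn1c encodes p57, an inhibitor of cyclin-dependent kinases. Its RPF level was 138, 144 and 150.3 CPM in wild-type and 123, 183 and 277 CPM in LOF/LOF embryos (0.44, SE 0.21, FDR = 0.404 by edgeR). Its RNA level was 124, 117 and 137 CPM in wild-type and 117, 145 and 221 CPM in LOF/LOF embryos (0.33, SE 0.18, FDR = 0.392 by edgeR). Phlda2, which limits growth of the placenta and lies close to Cdkn1c on chromosome 7, had RPF levels of 105, 100.0 and 109.6 CPM in wild-type and 86.0, 132 and 201.1 CPM in LOF/LOF embryos (0.42, SE 0.22, FDR = 0.438 by edgeR). In both genes LOF/LOF replicate 1 lay below all wild-type embryos and replicate 3 far above them. Phlda2 RNA followed the same order, with 32.7, 55.9 and 74.0 CPM in LOF/LOF against 42.5 to 51.2 CPM in wild-type embryos (0.15, SE 0.22, FDR = 0.792 by edgeR). The RNA differences of Cdkn1c and Phlda2 were 0.05 and -0.11 without LOF/LOF replicate 3. They were 0.52 and 0.42 without replicate 1, and neither gene was called in RNA in these fits. Without LOF/LOF replicate 1, both were called higher in RPF, each with a log2 fold change of 0.67 (SE 0.14, FDR = 0.0831 for Cdkn1c and 0.0905 for Phlda2 by edgeR). Without LOF/LOF replicate 3 the RPF differences were 0.09 in Cdkn1c and 0.06 in Phlda2 (FDR = 0.878 and 0.923 by edgeR), and with the Y-linked covariate 0.15 and 0.14. With LOF/LOF replicate 2 alone against the wild-type embryos, the RPF difference was 0.34 in each gene. Their size thus depended on which LOF/LOF embryos were included.

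Grb10, an adaptor protein that dampens signaling from the insulin and IGF receptors, was second in RPF level per length (809 CPM per kb in wild-type embryos). It varied little. RPF levels were 1388, 1416 and 1392 CPM in wild-type and 1534, 1349 and 1565 CPM in LOF/LOF embryos (0.08, SE 0.07, FDR = 0.638 by edgeR). RNA was 1775, 1803 and 1783 CPM in wild-type and 1898, 1895 and 1874 CPM in LOF/LOF embryos, without overlap but with a difference of 0.08 that was not called (SE 0.04, FDR = 0.408 by edgeR). The 5 growth-restricting rows summed to 2938 to 3014 CPM in the wild-type and 3082 to 3721 CPM in the LOF/LOF RPF libraries, H19 adding nothing to these sums. The difference between the growth-promoting and growth-restricting lists was not tested.

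H19 and Meg3 are long noncoding RNAs. They have no coding sequence, so their RPF counts are 0 by the way RPFs were counted. Their RNA was tested among the 21889 transcripts with any RNA count, of which 3.51% were called. H19, which is transcribed from the maternal copy next to Igf2, was the RNA with the highest level per length among the members (1291 CPM per kb of transcript in wild-type embryos). It had 3031, 2653 and 3170.3 CPM in wild-type and 2526, 3156 and 3684 CPM in LOF/LOF embryos. LOF/LOF replicate 1 was lowest and replicate 3 highest of the 6, and the log2 fold change was 0.09 (SE 0.09, FDR = 0.751 by edgeR). Meg3, the maternally expressed RNA of the Dlk1 cluster, had 25.2, 22.1 and 24.0 CPM in wild-type and 17.1, 25.7 and 23.4 CPM in LOF/LOF embryos. Its LOF/LOF replicate 1 was again lowest, and the difference was -0.10 (SE 0.12, FDR = 0.786 by edgeR). In that same fit Gm49394, which contains Igf2, had a log2 fold change of 0.20 (SE 0.08, FDR = 0.239 by edgeR). The potassium channel gene Kcnq1 had only 3 to 6 RPF counts and 4 to 27 RNA counts per library, too few for a statement at this depth.

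Cd81, a tetraspanin of the cell surface (chr7:143052739-143067934, plus strand, 8 exons), had the larger difference of the 2 members called in RPF. Its RPF level was 223, 222 and 198 CPM in wild-type and 338, 269.7 and 305 CPM in LOF/LOF embryos. All LOF/LOF embryos lay above all wild-type embryos, here with replicate 1 highest. The means were 214 ± 14.3 and 304 ± 34.3 CPM (SD, n = 3), a 1.41-fold difference (log2 fold change 0.50, SE 0.09, FDR = 0.0357 by edgeR). Its RNA was 136, 137 and 148 CPM in wild-type and 157, 149.7 and 165 CPM in LOF/LOF embryos, which also did not overlap but were not called (0.16, SE 0.05, FDR = 0.168 by edgeR). The Cd81 RPF call was lost without wild-type replicate 1, 2 or 3 or LOF/LOF replicate 3 (FDR = 0.143, 0.168, 0.107 and 0.122 by edgeR), with log2 fold changes of 0.42 to 0.58 over the 6 fits. With the Y-linked covariate it was 0.38 (SE 0.11, FDR = 0.359 by edgeR).

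Nnat, a small membrane protein best known from the developing brain (chr2:157560110-157562522, plus strand, 3 exons), was the one member called in RNA, where 5.02% of all transcripts were called in either direction, 3.25% as lower and 1.77% as higher. Its RNA level was 194, 185 and 198 CPM in wild-type and 155.5, 165 and 157.5 CPM in LOF/LOF embryos. The LOF/LOF embryos all lay below the wild-type embryos, with means of 192 ± 6.64 and 159 ± 5.03 CPM (SD, n = 3, wild-type first) and a log2 fold change of -0.27 (SE 0.05, FDR = 0.0235 by edgeR). Nnat RPF was 127.5, 130.5 and 117 CPM in wild-type and 117, 105 and 115 CPM in LOF/LOF embryos, also lower but not called (-0.15, SE 0.07, FDR = 0.399 by edgeR). The RNA call was lost without wild-type replicate 1 (FDR = 0.123 by edgeR) and with the Y-linked covariate (-0.23, SE 0.07, FDR = 0.359 by edgeR). Beside it, neural markers (8 of 8 tested, of which Hes5 was called lower in RNA with a log2 fold change of -0.58) summed to 240 to 251 CPM in the wild-type and 205 to 242 CPM in the LOF/LOF RNA libraries, with Sox2, the most abundant of them in RPF, at -0.04 in RNA. Their part in the Nnat difference was not tested.

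Other members were not called by edgeR, while limma-voom with sva, which called 10.4% of all transcripts, called Ndn lower and Asb4 higher in RPF. Without LOF/LOF replicate 2, edgeR called Snrpn, Impact, Dcn and Asb4 higher in RPF, among 11.6% of all transcripts. Slc22a18, a transporter of the Cdkn1c cluster, had the largest difference in RNA. Its 36 to 61 RPF counts in wild-type and 15 to 34 in LOF/LOF embryos gave 5.58, 4.92 and 3.75 CPM against 2.19, 3.26 and 3.23 CPM. RNA was 2.03, 2.11 and 2.84 CPM in wild-type and 1.28, 1.71 and 1.18 CPM in LOF/LOF embryos. The LOF/LOF embryos were lower in both libraries without overlap, and the log2 fold changes of -0.69 (SE 0.23, FDR = 0.219) in RPF and -0.73 (SE 0.24, FDR = 0.149) in RNA did not pass edgeR's test. Ascl2, a transcription factor of the trophoblast, rested on 2 to 10 RPF counts per library (-0.73, SE 0.46, FDR = 0.525 by edgeR).

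Dcn, which encodes the matrix proteoglycan decorin, had log2 fold changes of opposite sign, 0.42 (SE 0.17, FDR = 0.310 by edgeR) in RPF and -0.38 (SE 0.18, FDR = 0.326 by edgeR) in RNA, neither of which was called. Asb4, a substrate receptor of a ubiquitin ligase found in early blood vessels, had RPF levels of 37.9, 35.7 and 40.0 CPM in wild-type and 43.3, 39.2 and 78.5 CPM in LOF/LOF embryos (0.51, SE 0.21, FDR = 0.316 by edgeR), so that its fitted difference rested largely on replicate 3. Snrpn, which encodes the spliceosomal protein SmN, had an RPF difference of 0.31 (SE 0.14, FDR = 0.339 by edgeR) and an RNA difference of 0.02 (SE 0.06).

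From the region of Prader-Willi and Angelman syndromes, the MAGE family genes Ndn and Magel2 differed by -0.15 (SE 0.07, FDR = 0.361 by edgeR) and 0.25 (SE 0.12, FDR = 0.419 by edgeR) in RPF. Their RPF levels did not overlap between the genotypes, with Ndn at 162 to 165 CPM in wild-type and 138 to 154 CPM in LOF/LOF embryos. Ube3a, the ubiquitin ligase that is imprinted in neurons only, had log2 fold changes of -0.01 (SE 0.06) in RPF and 0.03 (SE 0.06) in RNA. Impact, an inhibitor of the kinase GCN2, lay at 93.1 ± 3.91 CPM in wild-type and 105 ± 9.13 CPM in LOF/LOF RPF libraries (SD, n = 3, log2 fold change 0.18, SE 0.08, FDR = 0.366 by edgeR).

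The remaining members tested had RPF log2 fold changes between -0.12 and 0.31. They were Sgce (0.15), the zinc finger gene Zim1 (-0.11), the ubiquitin protease gene Usp29 (0.16, on 4 to 13 counts), Nap1l5 (-0.12, on 3 to 9 counts), the retrogenes Mcts2 (0.04) and Zrsr1 (0.13), Tssc4 (0.13), the lipid transfer gene Osbpl5 (0.31) and Commd1 (0.07). The Commd1 value is uncertain, since 56.2% of the 28-base stretches in its counted coding sequence also occur in the transcript Gm28048. Igf2r, Gnas and Rtl1 have antisense transcripts, and whether reads were counted by strand is not given in the sources used here.

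**Figure D2:**
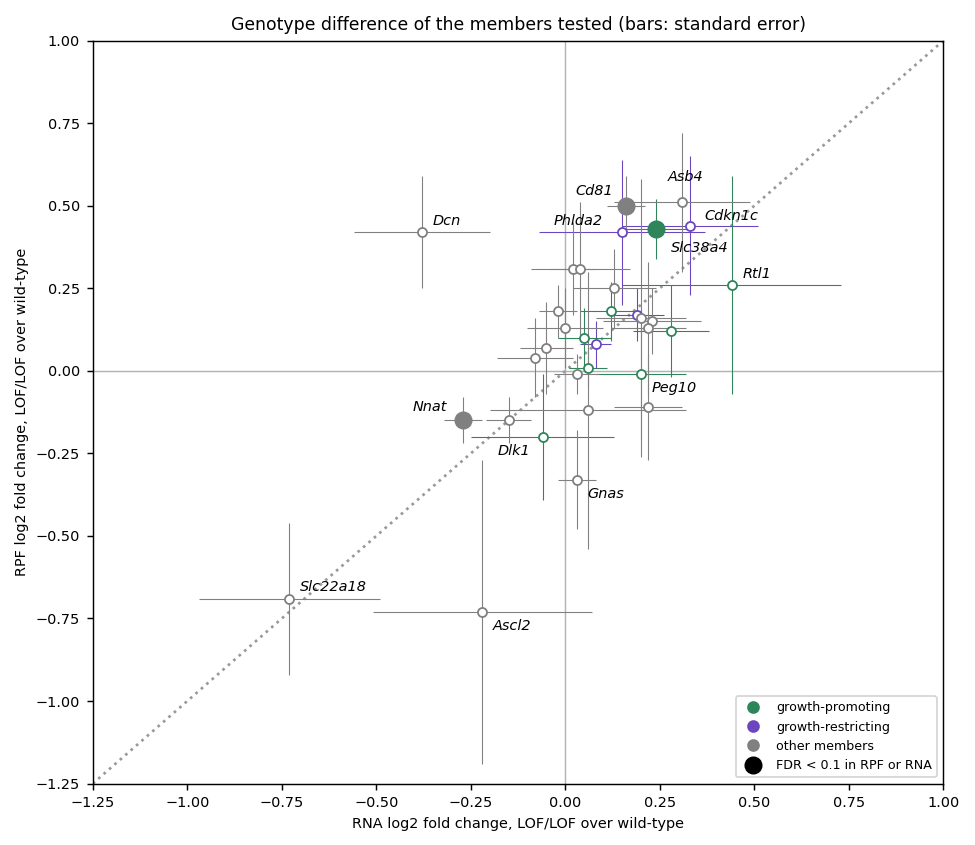
RPF log2 fold change (vertical axis) against RNA log2 fold change (horizontal axis), LOF/LOF over wild-type, of the 33 members tested, with standard errors as bars and equal change as the dotted line. The filled points are the 3 members called, Slc38a4 (0.43 in RPF), Cd81 (0.50 in RPF) and Nnat (-0.27 in RNA), and of the others Slc22a18 lies farthest from 0 (-0.69 in RPF, -0.73 in RNA).

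Over the 33 members tested, RPF log2 fold changes were positive in 23 (69.7%, beside 50.9% of all transcripts) with a median of 0.13, and RNA log2 fold changes were positive in 23 (49.4% of all transcripts) with a median of 0.06. The number with an unadjusted p under 0.05 was 8 in RPF (24.2%, beside 13.7% of all transcripts) and 8 in RNA (24.2%, beside 17%). Members were also sorted by the parental copy listed as expressed, which was not measured in these embryos. For several genes that listing holds only in placenta or neurons. Of 18 members listed as paternally expressed 1 (Slc38a4) and of 13 listed as maternally expressed 1 (Cd81) was called in RPF, beside 2.19% of all transcripts. The RPF medians of the 2 groups were 0.12 and 0.17. In RPF, 4 members lay above the wild-type embryos without overlap (12.1%, beside 9.92% of all transcripts) and 4 lay below (12.1%, beside 9.45%). In RNA, 3 lay above (9.09%, beside 10.2%) and 2 lay below (6.06%, beside 12.6%). Igf2r, Slc38a4, Cd81 and Magel2 lay above and Ndn, Nnat, Gnas and Slc22a18 below in RPF, and Grb10, Cd81 and Zrsr1 above and Nnat and Slc22a18 below in RNA.

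RPF per RNA, the ratio of an embryo's RPF level to its RNA level, follows how densely an mRNA is loaded with ribosomes. No member was called, and no transcript was (0% of 12576). The SEs and p-values of RPF per RNA come from a fit without an embryo term, in which the 2 libraries of an embryo are not paired. DESeq2 called 4 transcripts and limma-voom 0, none of them a member. The ratios did not overlap and were higher in LOF/LOF embryos in 4 members (12.1%, beside 6.84% of all transcripts with RNA counts in every embryo), and lower in 2 (6.06%, beside 5.23%). At an unadjusted p under 0.05 there were 3 of the 33 members (9.09%, beside 4.44% of all transcripts). Cd81 had ratios of 1.64, 1.62 and 1.33 in wild-type and 2.16, 1.80 and 1.84 in LOF/LOF embryos, higher in all 3 (log2 difference 0.34, SE 0.11, FDR = 1 by edgeR). Dcn had 2.14, 1.94 and 1.79 in wild-type and 3.84, 2.58 and 3.31 in LOF/LOF embryos, also higher in all 3 (0.80, SE 0.27, FDR = 1 by edgeR). Gnas, whose row mixes products as described, had 0.0132, 0.0147 and 0.0149 in wild-type and 0.0114, 0.00992 and 0.0118 in LOF/LOF embryos, lower in all 3 (-0.36, SE 0.12, FDR = 1 by edgeR).

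Slc38a4, called by edgeR in RPF and not in RNA, had ratios of 1.5, 1.55 and 1.51 in wild-type and 1.88, 1.51 and 1.80 in LOF/LOF embryos, and the embryos overlapped in replicate 2 (0.19, SE 0.14, FDR = 1 by edgeR). A change in its RPF beyond that in its RNA was thus not detected. The ratios of the growth-promoting genes differed by a median of -0.09 and those of the growth-restricting genes by 0.05 on the log2 scale, with none of the 12 at an unadjusted p under 0.05. Phlda2 had the largest among the growth-restricting genes (0.28, SE 0.37) and Peg10 among the growth-promoting genes (-0.22, SE 0.27). These SEs hold differences between embryos that a pairing can remove. With the embryo as a block, the SE went from 0.13 to 0.07 in Peg3 and from 0.11 to 0.07 in Igf2r, and neither was called. Since RPFs were counted on the coding sequence and RNA on the whole transcript, ratios of different genes are not on one scale. Within the table the wild-type ratio of Gnas, 0.0143, was higher than that of only 0.0398% of the transcripts, and that of Gm49394, 0.00863, higher than that of 0.00795%, both rows in which the counted coding sequence is not that of the main product.

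**Figure D3:**
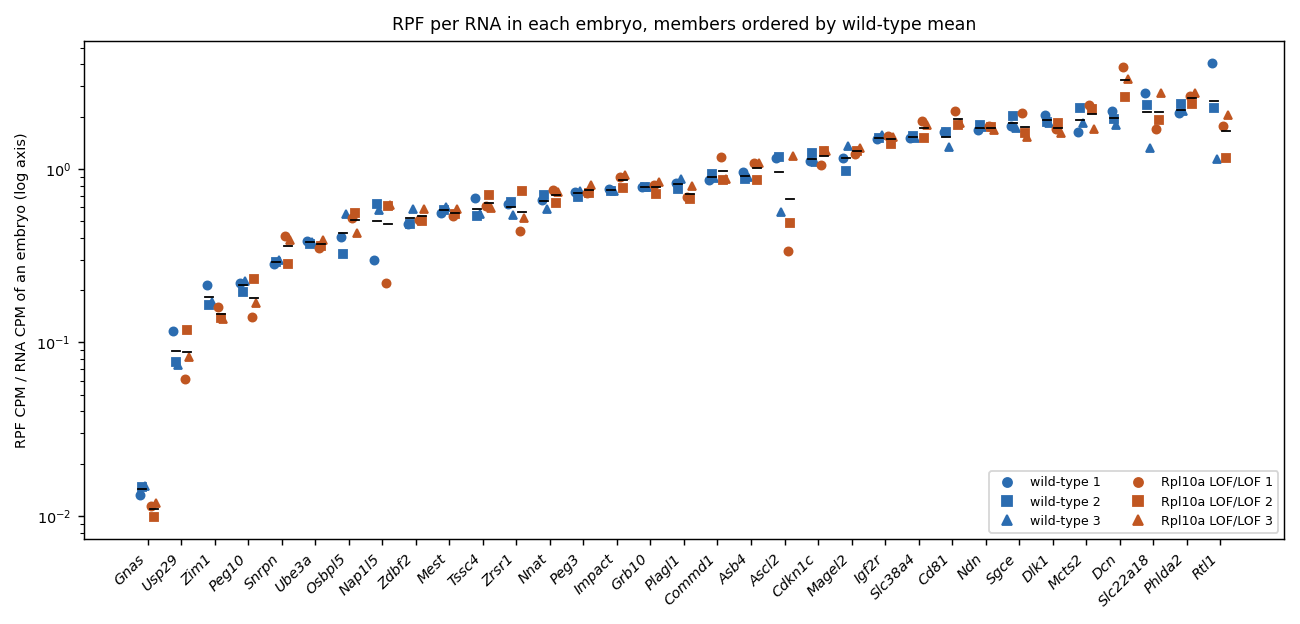
RPF CPM divided by RNA CPM in each embryo on a log axis for the 33 members tested, ordered by their wild-type mean, with the genotype mean as a bar. Wild-type and LOF/LOF points overlap in most genes, while those of Dcn (1.79 to 2.14 against 2.58 to 3.84), Cd81 (1.33 to 1.64 against 1.80 to 2.16), Phlda2 (2.09 to 2.35 against 2.37 to 2.72), Impact (0.742 to 0.766 against 0.775 to 0.922), Zim1 (0.164 to 0.213 against 0.136 to 0.16) and Gnas (0.0132 to 0.0149 against 0.00992 to 0.0118) do not.

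Most members had a wider spread among LOF/LOF than among wild-type embryos, as did most transcripts. The SD of log2(CPM + 1) over the 3 embryos was larger in LOF/LOF in 26 of the 33 members in RPF (78.8%, beside 70.6% of all transcripts) and in 26 in RNA (78.8%, beside 56.7%). The median SD of the members was 0.09 in wild-type and 0.20 in LOF/LOF RPF libraries, and 0.10 and 0.15 over all transcripts. In RNA it was 0.06 and 0.16 for the members, beside 0.08 and 0.09 over all transcripts. LOF/LOF replicate 3 was the highest of the 6 embryos for 15 members in RPF (45.5%, beside 19.2% of all transcripts) and for 17 in RNA (51.5%, beside 22.1%). LOF/LOF replicate 1 was the lowest for 14 members in RPF (42.4%, beside 24.2%) and for 10 in RNA (30.3%, beside 18.0%).

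Markers of tissues outside the embryo proper were read in the same libraries. In the LOF/LOF RPF libraries the sum over 8 markers of allantois and extraembryonic mesoderm was 675, 926 and 1177 CPM in replicates 1, 2 and 3, against 825 to 853 CPM in wild-type embryos. Of these markers 7 were tested and none was called. Vim, the most abundant (0.15 in RPF), had a wild-type mean of 536 CPM and thus made up most of the sum. Tbx4, a transcription factor of the allantois, was 1.65, 4.33 and 3.54 CPM in wild-type and 1.31, 11.4 and 22.7 CPM in LOF/LOF RPF libraries (2.00, SE 0.65, FDR = 0.201 by edgeR), with overlap. It had the largest RPF log2 fold change of the 7, while 2 were negative (Ahnak -0.37 and Postn -0.03). The sum over 10 trophoblast markers was 979, 1338 and 1393 CPM against 1174 to 1258 CPM, with none of the 7 tested called. Krt8 and Krt18 were the most abundant of them (0.07 and -0.07 in RPF). With wild-type means of 617 and 496 CPM they made up most of the sum. The trophoblast genes Gcm1, Tpbpa and Prl2c2 had at most 5 RPF counts in any library, while Prl3d1 had 4 to 74 (1.35, SE 0.58, FDR = 0.335 by edgeR, with LOF/LOF replicate 3 at 7.04 CPM against 0.468 to 3.13 CPM in wild-type embryos) and Hand1 210 to 785 (0.13). Hand1 is in both lists, and how far either sum follows its tissue was not tested. In both sums, as in Cdkn1c, Phlda2 and Plagl1 RPF, replicate 1 was the lowest and replicate 3 the highest of the 6 embryos. Their part in the spread of the members was not tested.

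Markers of visceral endoderm, the absorptive layer of the yolk sac, and some markers of primitive red cells passed the test. All 15 visceral endoderm markers were called lower in RNA (3.25% of all transcripts) and 11 in RPF (1.15% of all transcripts). In RPF they summed to 6605 to 8719 CPM in wild-type and 2391 to 5019 CPM in LOF/LOF embryos, none of them at 0. Apob was the most abundant (log2 fold change in RPF -1.14, FDR = 0.0357 by edgeR), and Ttr, Apoa1, Apoa4, Amn, Cubn, Rbp4, Hnf4a, Cldn2, Soat2 and Apom were the others lower in both libraries, with Afp, Foxa3, Trf and Spink1 called in RNA only. Of 10 primitive erythroid markers, Hbb-y, Hba-a2, Alas2, Slc4a1 and Klf1 were called higher in RPF (1.05% of all transcripts), and Alas2 and Slc4a1 also in RNA (1.77% of all transcripts), with the globin genes uncertain because near-identical copies can share their reads. Their sum was 848 to 2851 CPM in wild-type and 3561 to 5845 CPM in LOF/LOF RPF libraries, but overlapped in RNA (428 to 1767 and 1597 to 2660.1 CPM), and the most abundant, Hbb-bh1, was not called (1.29, FDR = 0.115 by edgeR). Of 9 mesoderm markers 1, Msgn1, was called lower in RPF (-0.55, FDR = 0.0855 by edgeR), while Foxc1, the most abundant, was not (-0.19, FDR = 0.487 by edgeR). The 9 summed to 159.5 to 168.4 CPM in wild-type and 138.6 to 150 CPM in LOF/LOF RPF libraries. Their RNA sums overlapped (263.6 to 269.5 and 239.5 to 278.4 CPM). Slc38a4 and Cd81 RPF were thus higher in the same embryos in which visceral endoderm markers were lower and erythroid markers higher, and the part of either tissue in those differences was not tested.

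**Figure D4:**
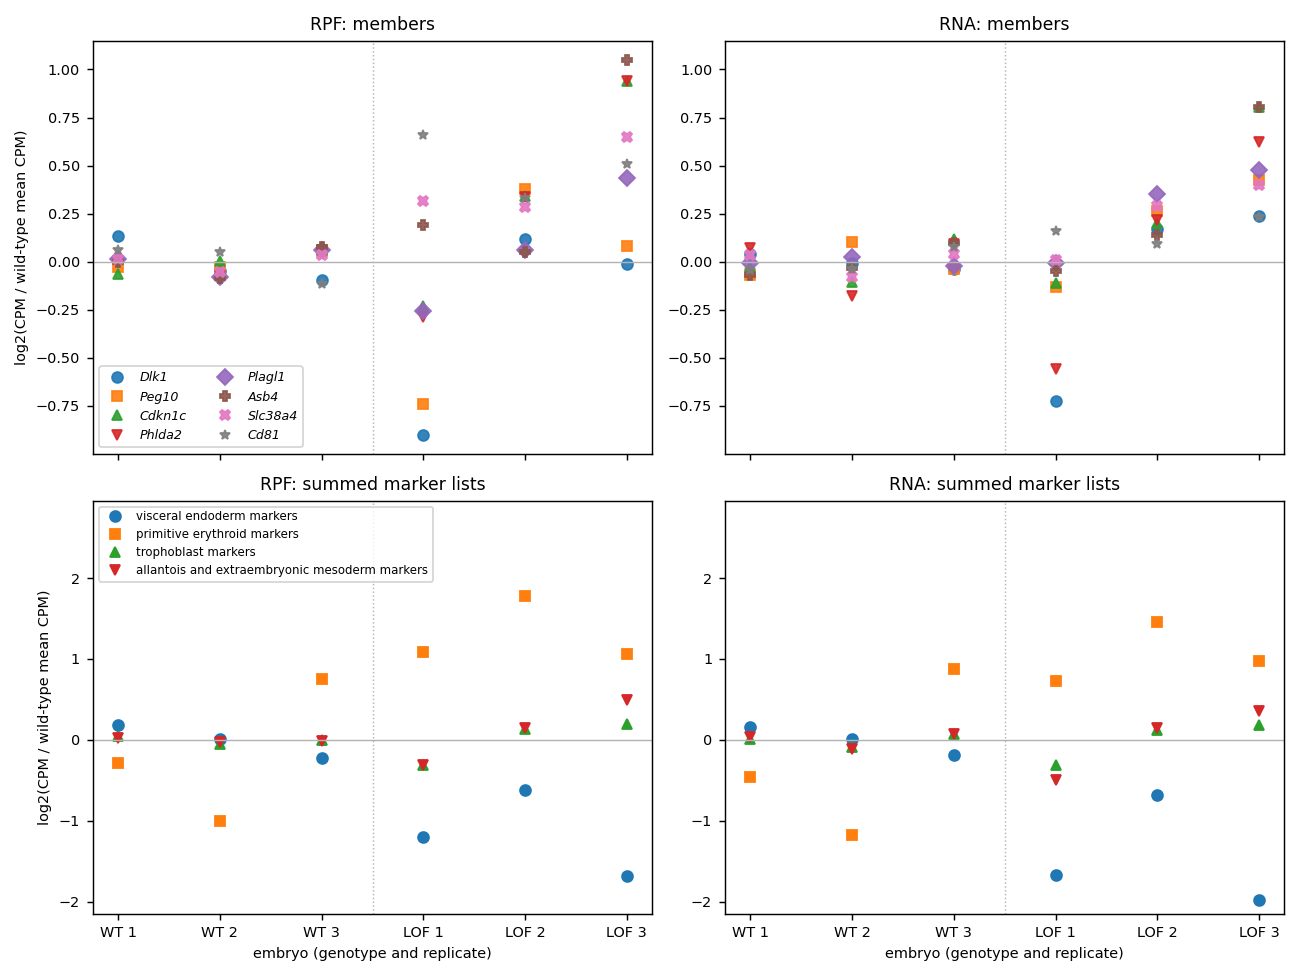
log2 ratio of each embryo's CPM to the wild-type mean for 8 members (top) and 4 summed marker lists (bottom), in RPF (left) and RNA (right), with 1 column of points per embryo. The wild-type embryos cluster near 0 for the members, Dlk1 and Peg10 RPF are lowest in LOF/LOF replicate 1 (116 and 138 CPM), and Cdkn1c, Phlda2 and Asb4 RPF are highest in LOF/LOF replicate 3 (277, 201.1 and 78.5 CPM).

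Genes that work with the members were looked at as lists. Of 16 partners of the IGF pathway, all tested, 2 were called higher in RPF (1.05% of all transcripts were) and 1 in RNA (1.77% of all transcripts were). Igfbp3 and Igfbp5 encode secreted proteins that bind IGFs and control their access to receptors. Igfbp5 was 199, 197 and 174 CPM in wild-type and 267, 218.5 and 275 CPM in LOF/LOF RPF libraries, without overlap (0.42, SE 0.09, FDR = 0.0701 by edgeR), and it was also called in RNA (0.28, SE 0.06, FDR = 0.0315 by edgeR). Igfbp3 was 30.0, 30.5 and 31.4 CPM in wild-type and 43.4, 37.5 and 46.2 CPM in LOF/LOF RPF libraries (0.47, SE 0.10, FDR = 0.0582 by edgeR), with an RNA difference of 0.13 that was not called (SE 0.09, FDR = 0.515). The receptors Igf1r and Insr and the mRNA-binding proteins Igf2bp1, Igf2bp2 and Igf2bp3 were not called, and the median of the list was -0.04 in RPF and 0.06 in RNA.

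Of 15 genes that establish or maintain imprints, such as Dnmt1, the methyltransferase that copies DNA methylation, and Zfp57 and Trim28, which protect imprints in the early embryo, 13 were tested and edgeR called 0 in RPF and 0 in RNA (2.19% and 5.02% of all transcripts), with 1 at an unadjusted p under 0.05 in each (13.7% and 17% of all transcripts). Of 32 neighbours of imprinted clusters, 31 were in the table and 24 were tested. Ddc, which lies beside Grb10, was called lower in RNA (-0.50, SE 0.13, FDR = 0.0776 by edgeR), as were 3.25% of all transcripts, and none was called in RPF. The medians of these lists in RPF were -0.02 and -0.05.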

How the data were processed

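RPF and RNA-seq libraries were made from the same 6 embryos. The authors trimmed and demultiplexed the reads, used Bowtie2 first to take out rRNA, tRNA and snRNA reads and then to align what remained to transcripts of GRCm38/mm10, keeping 1 canonical transcript per gene, and removed PCR duplicates with UMI-tools. The deposited values are counts without normalization: for RPF, A sites in the coding sequence without its first 15 and last 5 codons, and for RNA, reads on the entire transcript. Because 1 transcript stands for each gene, products of other transcripts are counted only where they share bases with it.

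Of 22467 transcripts, 21976 had the same version in the GENCODE annotation used here, 477 a different version and 14 no entry. Transcripts above 0.75 CPM in at least 3 RPF libraries were kept (12576), which held 99.9% of RPF counts. RPF and RNA libraries were normalized separately by TMM and tested with edgeR 4.0.16 (R 4.3.3; glmQLFTest, genotype only, Benjamini-Hochberg, FDR 0.1), since no design is stated for the pipeline of the study (limma-voom with sva and locfdr). RPF per RNA was the genotype by library interaction over 12 libraries. RPF and RNA deviations of the same embryo correlated in all 6 embryos (r 0.191 to 0.403, across transcripts), and the embryo as a block changed no call of a member. Standard errors were taken as the size of the log2 fold change over the square root of F. Fits were tested on simulated data. Depth sets the precision of weak members: 2 to 10 counts in Ascl2 gave a standard error of 0.46. Levels per kb use the coding sequence without the excluded codons for RPF and the transcript length for RNA.

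The members and gene lists were chosen with earlier results of these data known. All members are named. Those called, and growth-promoting or growth-restricting members, are given in every embryo, while other lists name the genes called and, for markers, the most abundant in wild-type RPF. Gm49394 and the stretch comparison were added after the Igf2 counts were seen, as were per-embryo values of Gnas, Slc22a18, Asb4, Dcn, Igfbp3 and Igfbp5 and the values of Tbx4, Prl3d1 and Hand1. Alternatives were DESeq2 1.42.0, limma-voom (limma 3.58.1), sva 3.50.0 (2 surrogate variables), RLE factors, 2 other filters, a Y-linked covariate, blocks and each embryo left out. That the 3 embryos of a genotype are separate animals comes from the labels' protocol.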

Additional observations from a re-analysis of the deposited data

How the results depend on the processing

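Members called in RPF numbered 2, and this was unchanged with DESeq2, limma-voom, RLE factors, either other filter and the replicate block. It was 9 with sva (Igf2r, Peg3, Cdkn1c, Phlda2, Slc38a4, Cd81 and Asb4 higher, Ndn and Nnat lower), with 10.4% in place of 2.19% of all transcripts called, and 0 with the Y-linked covariate, with 0.223% called. That covariate leaves the comparison to rest mostly on LOF/LOF replicate 2. In the wild-type embryos against that embryo alone, chosen after seeing the data and with its spread taken from the wild-type embryos, it was 6 (Peg3, Cdkn1c, Phlda2, Peg10, Slc38a4 and Cd81, all higher, with 3.86% of all transcripts called), and Peg10 turned from -0.01 to 0.38 in RPF. Leaving out 1 embryo gave 0 to 6 in RPF (0 without wild-type replicate 1, 2 or 3 or LOF/LOF replicate 3, 5 without LOF/LOF replicate 1 and 6 without LOF/LOF replicate 2), 0 (without wild-type replicate 1) to 7 in RNA and 0 in RPF per RNA. The 7 came without LOF/LOF replicate 1, when the Dlk1 RNA difference, from -0.21 to 0.20 over these fits, was called positive. Members called in RNA numbered 1 (5.02% of all transcripts called), and 4 with DESeq2 (Igf2r, Plagl1 and Slc38a4 added, 4.92% called), 3 with all transcripts of any count (Plagl1 and Slc38a4 added, 3.51% called) and 0 with the Y-linked covariate (0.732% called). LOF/LOF replicate 2 alone against the wild-type embryos gave 1, Plagl1 and not Nnat, with 0.795% of all transcripts called. Over 15 alternatives the log2 fold change kept its direction in Slc38a4 RPF (0.23 to 0.49, called in 10), Cd81 RPF (0.33 to 0.58, called in 10) and Nnat RNA (-0.30 to -0.22, called in 12). RPF per RNA called 0 members under every alternative, the embryo replicate block included. Same-numbered embryos of the 2 genotypes are different animals (r -0.10 to 0.0819 across transcripts), and with that replicate block the paired counts were 2 in RPF and 1 in RNA. Fits with 5 embryos have fewer samples. The share of all transcripts called in RPF was 0.0321 to 1.04% without a wild-type embryo and 1.52, 11.6 and 0.322% without LOF/LOF replicates 1, 2 and 3, and in RNA 0.786% without wild-type replicate 1 and 3.54% without LOF/LOF replicate 1. Causes of the other shifts were not tested.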
